A study of Mus musculus with 16 samples.

Results

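The 9 genes described here are the chemokines Ccl2, Ccl7, Ccl8, Ccl3 and Ccl4, the chemokine receptors Ccr1, Ccr2 and Cx3cr1, and Cx3cl1 (fractalkine), the ligand of Cx3cr1. They were chosen by name, and all 9 were found among the 13733 genes listed. Their transcripts were measured by bulk RNA-seq of knee joint cells from 16 male mice of the C57BL/6 strain, with 4 mice in each of 4 groups. WT D0 and Trem2-/- D0 joints were uninjured. WT D7 and Trem2-/- D7 joints were taken 7 days after a single compressive overload of the tibia that injures the anterior cruciate ligament, given at 10 weeks of age. Trem2-/- mice carried the Trem2em2Adiuj allele on both copies of the gene in every cell, so loss of Trem2, a surface receptor of myeloid cells, was not limited to the joint or to macrophages. The labels also give an age of 16 weeks and a protocol for whole homogenized joints of another mouse model, whereas the methods describe cells released by enzymes. The groups rest on genotype and injury, which both sources give alike. Whether the cells were enriched for CD45, the leukocyte surface protein encoded by Ptprc, is not stated.

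Chemokines are small secreted proteins that attract leukocytes through G protein-coupled receptors. Ccl2, Ccl7 and Ccl8 are monocyte chemoattractants; Ccl2 and Ccl7 act through Ccr2, the receptor that classical monocytes need to leave the bone marrow and enter injured tissue. Ccl3 and Ccl4 are the macrophage inflammatory proteins 1-alpha and 1-beta, released by activated myeloid cells, and Ccl3 acts through Ccr1. Cx3cl1 is made as a membrane-bound protein by endothelial and other nonimmune cells and is shed by metalloproteinases. Its receptor Cx3cr1 is high on nonclassical monocytes and on several resident macrophages, including those of the synovial lining. Monocytes that turn into macrophages are known to lower Ccr2 and, in many tissues, to raise Cx3cr1.

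Each value comes from 1 mouse, and nothing in the sources ties mice to a shared batch, so p-values measure only the spread between these samples. The values are CPM, the reads of a gene relative to all reads of its library at a fixed depth, normalized by TMM, a method that scales each library to a common composition. Libraries held between 11567073 and 32867818 reads on these genes, and 3 reads, the limit that a count of 0 allows, corresponded to between 0.101 and 0.250 CPM. Genes were compared on the log2(CPM + 1) scale with limma. A gene is called here, by the thresholds of the study, when its unadjusted p is below 0.05 and one group exceeds the other by more than 25%, and the adjusted p (Benjamini-Hochberg over the 13173 genes tested) stands beside it. All 9 genes passed the filter of 1 CPM in 4 libraries. Ccl8 passed it only through Trem2-/- D7, where all 4 mice reached 1 CPM, against 2 at WT D7, 1 at Trem2-/- D0 and 0 at WT D0. Calls of Ccl8 as higher in that group were thus favoured by the filter. As a check of the labels, Trem2 itself was 16.8 ± 5.08 CPM (SD, n = 4) at WT D7 and 4.27 ± 0.644 at Trem2-/- D7, without overlap. At D0 it was 4.56 ± 1.40 in WT and 1.80 ± 0.713 in Trem2-/- mice, with overlapping ranges, so reads on the gene remained in the knockout.

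The 5 CC chemokines lie on chromosome 11 of the mouse genome (GRCm38, GENCODE M21). Ccl2 (chr11:82035571-82037453), Ccl7 (chr11:82045712-82047525) and Ccl8 (chr11:82115185-82116799) form one cluster on the plus strand. Ccl3 (chr11:83647844-83649355, minus strand) and Ccl4 (chr11:83662584-83664683, plus strand) lie next to each other further along. Ccr1 (chr9:123962124-123968692, minus strand) and Ccr2 (chr9:124101950-124113557, plus strand) are neighbours on chromosome 9. Cx3cr1 (chr9:119901616-120069879, minus strand) lies elsewhere on that chromosome, and Cx3cl1 (chr8:94772009-94782427, plus strand) is on chromosome 8. In this annotation only Cx3cr1 shares exon bases with another gene, 78 bases (1.70%) with Gm33858 on the opposite strand. RefSeq gives Ccl4 a longer span, from 83648624, that reaches into Ccl3 on the other strand. No source gives the strand setting used for counting, so reads of such overlaps could not be assigned to one strand here.

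The 3 promoter sequences are shown to set genes that fell after injury in Trem2-/- joints, Ccl3 and Ccr1, beside one that rose, Ccl8. Each holds the 250 bases before the RefSeq start (GRCm38.p6), 5′ to 3′ on the gene's own strand. The capitals mark matches to the 5 motifs searched on both strands, which were NF-kB, AP-1 (TGANTCA), PU.1 (GAGGAAG), C/EBP (TTGCNNAA) and the TATA box (TATAAA).
Ccl3, chr11:83649379-83649628, minus strand: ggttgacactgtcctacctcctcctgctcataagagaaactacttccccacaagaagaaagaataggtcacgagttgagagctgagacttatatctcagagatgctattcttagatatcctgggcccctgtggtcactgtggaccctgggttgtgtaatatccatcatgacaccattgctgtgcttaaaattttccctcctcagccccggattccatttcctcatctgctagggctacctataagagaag
Ccr1, chr9:123968693-123968942, minus strand: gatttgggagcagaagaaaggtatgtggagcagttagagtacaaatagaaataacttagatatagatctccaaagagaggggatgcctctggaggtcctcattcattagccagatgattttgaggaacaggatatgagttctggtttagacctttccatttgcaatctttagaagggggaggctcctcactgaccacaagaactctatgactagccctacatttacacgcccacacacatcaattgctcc
Ccl8, chr11:82114935-82115184, plus strand: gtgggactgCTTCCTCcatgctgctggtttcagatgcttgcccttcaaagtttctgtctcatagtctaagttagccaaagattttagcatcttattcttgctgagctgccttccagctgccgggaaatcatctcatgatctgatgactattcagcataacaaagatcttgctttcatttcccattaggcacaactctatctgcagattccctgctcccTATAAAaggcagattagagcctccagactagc
The windows of Ccl3 and Ccr1 held none of the 5 motifs. The window of Ccl8 held a PU.1 match on the other strand, starting 241 bases before the start, and a TATA box starting 32 bases before it. Among the 32851 promoters of the same length in the table, 10.6% held the PU.1 letters, 12.4% the TATA box, 9.56% the C/EBP letters, 6.75% the AP-1 letters and 0.356% the NF-kB motif. Of the genes searched and not shown, Cx3cl1, which also rose, held a PU.1 match on the other strand, starting 67 bases before the start. It also held the TATA box letters, but starting only 6 bases before the start, at the end of the window. Ccr2, which fell, and Cx3cr1, which was not called, held none of the motifs. Ccl2, Ccl7 and Ccl4 had no sequence to search. A match describes letters only, and a link of motifs to the changes was not tested.

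Levels between genes were compared per kilobase of merged exon length, without a test. At WT D0 the highest level was that of Ccl3, 333 ± 76.0 CPM per kb (SD, n = 4), followed by Ccr1 at 160.4 ± 41.5 and Ccl4 at 116 ± 33.1, and the ranges of Ccr1 and Ccl4 overlapped. Ccl2 (64.8 ± 29.9 CPM per kb) and Ccl7 (34.8 ± 18.9) came next, with overlapping ranges. Cx3cl1 (11.4 ± 3.98) and Ccr2 (8.33 ± 3.58) also overlapped, and both Cx3cr1 at 2.35 ± 1.22 and Ccl8 at 0.847 ± 0.646 CPM per kb, which overlapped each other, lay below Ccr2. By Trem2-/- D7, Ccl2 at 96.1 ± 42.6 stood between Ccl3 (range 78.6 to 197) and Ccr1 at 69.6 ± 17.6 CPM per kb, and these 3 ranges overlapped. Ccl8, at 4.22 ± 1.29, then stood above Ccr2 at 2.89 ± 0.536 and Cx3cr1 at 1.85 ± 0.271 CPM per kb, although the ranges of Ccl8 and Ccr2 overlapped.

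**Figure D1:**
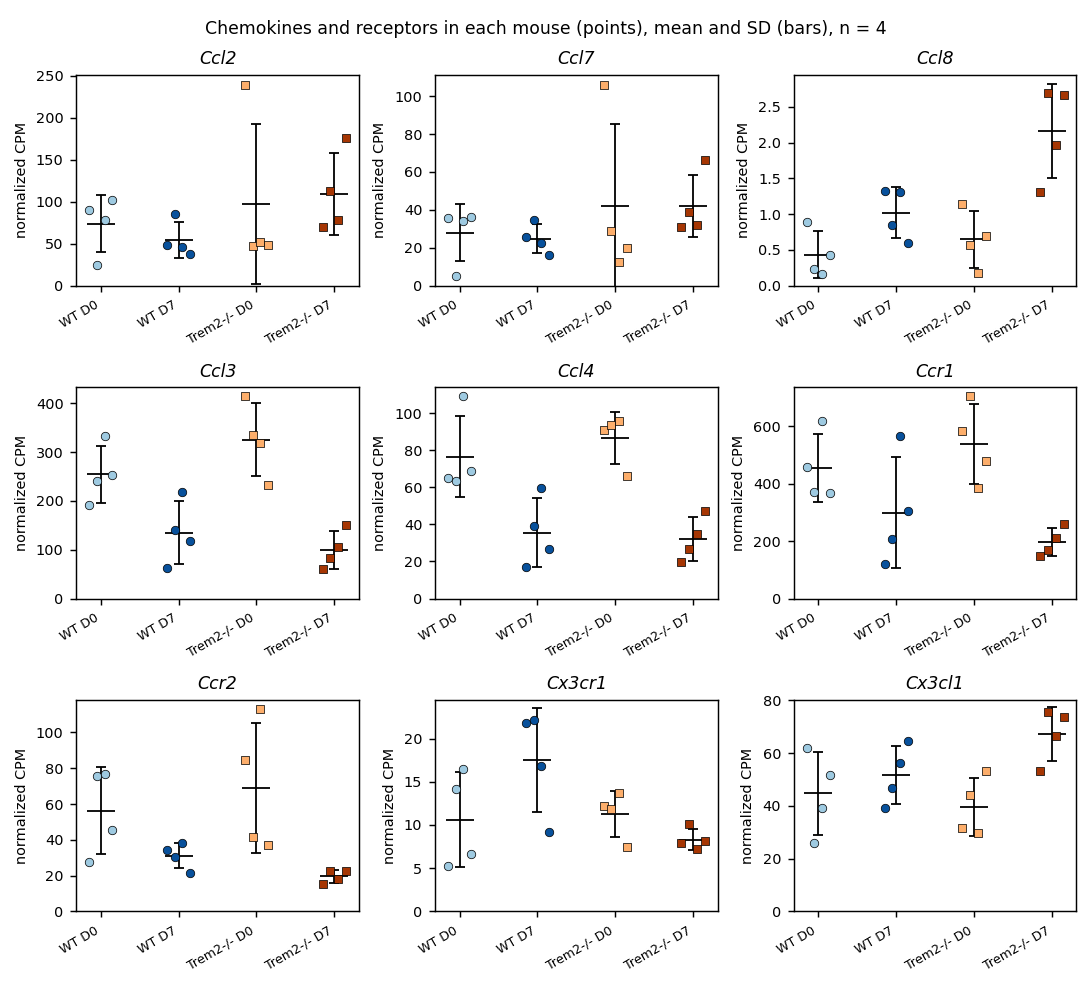
Normalized CPM of the 9 genes in each of the 16 mice (points) by group, with the group mean and SD (bars) on linear axes that start at 0. Ccl3, Ccl4, Ccr1 and Ccr2 in the Trem2-/- D7 mice lie below all Trem2-/- D0 mice, Ccl8 lies above them, and 1 Trem2-/- D0 mouse stands apart for Ccl2 (239.7 CPM) and Ccl7 (106 CPM).

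In WT joints, the data show what changed 7 days after injury. Ccl3 and Ccl4 fell, to 0.527 and 0.465 of their D0 means. Ccr1 was called lower, and Cx3cr1 and Ccl8 were called higher, without passing the adjusted threshold. Ccl2, Ccl7, Ccr2 and Cx3cl1 were not called. Thus 5 of the 9 genes were called, against 37.4% of all genes tested, and 2 passed the adjusted threshold, against 28.5%. That last share rests on 3752 genes, which became 2251, 1968 and 2496 when WT D0 replicate 2, WT D0 replicate 3 or WT D7 replicate 1 was left out. The median log2 fold change was -0.32 over the 9 genes and -0.04 over all genes. Ccl3, Ccl4 and Ccr1, called lower, are 3 of 9 against 18.2% of all genes, and Ccl8 and Cx3cr1, called higher, are 2 of 9 against 19.3%. Of the 9, 1 gene (Ccl4) had groups that did not overlap, against 22.2% of all genes.

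Ccl3 was 193, 241, 333 and 253 CPM in the 4 WT D0 mice and 61.8, 140.0, 218 and 118 CPM in the 4 WT D7 mice. The D7 mouse at 218 CPM lay within the D0 range, and the other 3 lay below it. The log2 fold change was -1.03 (SE 0.332, adjusted p = 0.0319). Ccl4 was 64.8, 63.4, 109 and 68.7 CPM at D0 and 17.1, 38.9, 59.7 and 26.7 CPM at D7. Every injured mouse was below every uninjured one, with a log2 fold change of -1.19 (SE 0.322, adjusted p = 0.0147). The adjusted p of Ccl3 rose to 0.1004 and that of Ccl4 to 0.0570 at most with 1 library left out, and both stayed called.

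Ccr1, the receptor for Ccl3, was 459, 371, 619 and 368 CPM at WT D0 and 119, 207, 568 and 305 CPM at WT D7. WT D7 replicate 3 lay within the D0 range, and the other 3 injured mice lay below it. The log2 fold change was -0.79 (SE 0.362, adjusted p = 0.107). The call was lost without any 1 of 8 of the 16 libraries (WT D0 replicates 1 and 3, WT D7 replicates 1 and 2, Trem2-/- D0 replicates 1 and 4, Trem2-/- D7 replicates 2 and 3), by edgeR, and in a fit of just the groups compared.

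Ccr2 was 27.4, 75.8, 76.9 and 45.3 CPM at WT D0 and 34.3, 30.6, 38.1 and 21.5 CPM at WT D7. Of the uninjured mice 3 were above all injured ones, and the ranges overlapped through WT D0 replicate 1. The log2 fold change of -0.75 (SE 0.357, adjusted p = 0.121 by limma) was not called. It was called without WT D0 replicate 1, WT D7 replicate 3, or Trem2-/- D0 replicate 2, 3 or 4. It was also called by edgeR and in a fit of just the groups compared.

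Cx3cr1 was 5.26, 14.2, 16.4 and 6.59 CPM at WT D0 and 21.8, 22.1, 16.8 and 9.21 CPM at WT D7. Of the injured mice 3 exceeded every uninjured one, and WT D7 replicate 4 lay within the D0 range. The log2 fold change was 0.73 (SE 0.321, adjusted p = 0.0950). The call was lost without WT D0 replicate 1 or 4 or WT D7 replicate 1, 2 or 3, by edgeR, and in a fit of just the groups compared. Cx3cl1 was 62.1, 26.0, 39.1 and 51.7 CPM at D0 and 39.2, 47.0, 56.1 and 64.5 CPM at D7, with a log2 fold change of 0.25 (SE 0.246, adjusted p = 0.453). Its ranges overlapped almost wholly.

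Ccl8 was near the limit of detection in uninjured WT mice, at 0.896, 0.239, 0.160 and 0.436 CPM, which are 3 to 15 reads. It was 1.32, 0.850, 1.31 and 0.594 CPM, or 10 to 38 reads, at WT D7. The mean was 2.36-fold higher, and the log2(CPM + 1) difference was 0.50 (SE 0.217, adjusted p = 0.0896). The call was lost without WT D0 replicate 2, 3 or 4, without WT D7 replicate 1 or 3, and with a pseudocount of 5. Ccl2 was 89.9, 24.7, 78.7 and 102 CPM at WT D0 and 48.2, 85.6, 46.6 and 38.2 CPM at WT D7, with a log2 fold change of -0.32 (SE 0.520, adjusted p = 0.668). Ccl7 was 35.97, 5.26, 34.2 and 36.1 CPM at WT D0 and 25.6, 34.6, 22.5 and 16.3 CPM at WT D7, with a log2 fold change of 0.09 (SE 0.605, adjusted p = 0.927). Both genes were low in the same uninjured mouse, WT D0 replicate 2. Without WT D7 replicate 1, 2 of the 9 genes were called in WT joints, Ccl3 and Ccl4.

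In Trem2-/- joints, the same comparison was made between other mice. Ccl3, Ccl4, Ccr1 and Ccr2 fell to between 0.283 and 0.370 of their D0 means, and Cx3cl1 and Ccl8 rose 1.70-fold and 3.34-fold. All 6 passed the adjusted threshold, whereas Ccl2, Ccl7 and Cx3cr1 were not called. These 6 of 9 genes stand against 54.5% of all genes tested by the call and 53.2% by the adjusted threshold. The 2 genes called higher stand against 26.5% of all genes and the 4 called lower against 27.9%. Of those called higher, Ccl8 passed the filter only through this injured group, so its rise is described and not counted as support. The groups did not overlap for 5 of the 9 genes, against 52.4% of all genes. These were the 4 genes called lower and Ccl8. Ccl8 is thus included in the counts of 6 called, 2 called higher and 5 without overlap, which its filtering favoured. The median log2 fold change was -0.38 over the 9 genes and -0.04 over all genes.

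Ccr2 was 84.5, 41.4, 113 and 37.0 CPM in the 4 Trem2-/- D0 mice and 15.3, 22.7, 17.9 and 22.4 CPM in the 4 Trem2-/- D7 mice. Every injured mouse was below every uninjured one, with a log2 fold change of -1.63 (SE 0.357, adjusted p = 0.00146). Ccr1 was 583, 706, 384 and 481 CPM at D0 and 147, 169, 213 and 259.6 CPM at D7. The injured mice were again all below the uninjured ones, with a log2 fold change of -1.44 (SE 0.362, adjusted p = 0.00376).

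Ccl3 fell from 415, 336, 318 and 233 CPM at Trem2-/- D0 to 60.2, 82.4, 105 and 151 CPM at Trem2-/- D7. Ccl4 fell from 90.7, 93.6, 95.8 and 65.9 CPM to 19.5, 26.9, 34.6 and 47.0 CPM. Neither gene overlapped between the groups. The log2 fold changes were -1.75 (SE 0.332, adjusted p = 0.000515) for Ccl3 and -1.46 (SE 0.322, adjusted p = 0.00153) for Ccl4.

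Ccl8 rose from 1.14, 0.569, 0.179 and 0.695 CPM (3 to 17 reads) at Trem2-/- D0 to 1.31, 2.69, 1.96 and 2.67 CPM (32 to 39 reads) at Trem2-/- D7. The groups did not overlap, and the log2(CPM + 1) difference was 0.95 (SE 0.217, adjusted p = 0.00203). Cx3cl1 rose from 31.5, 44.2, 29.6 and 53.1 CPM to 53.1, 75.5, 66.5 and 73.8 CPM. The lowest injured mouse equalled the highest uninjured one to 3 digits and the others were higher, with a log2 fold change of 0.78 (SE 0.246, adjusted p = 0.0153). Its adjusted p reached 0.0512 at most with 1 library left out.

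Cx3cr1 was 12.2, 11.8, 13.7 and 7.42 CPM at Trem2-/- D0 and 7.90, 10.1, 7.22 and 8.09 CPM at Trem2-/- D7. Of the uninjured mice 3 were above all injured ones, and the log2 fold change of -0.38 (SE 0.321, adjusted p = 0.336) was not called. Ccl2 was 239.7, 47.6, 51.8 and 48.1 CPM at D0 and 69.5, 113, 78.3 and 176 CPM at D7. Ccl7 was 106, 29.1, 12.5 and 19.7 CPM at D0 and 30.7, 39.1, 32.2 and 66.1 CPM at D7. Each was highest at D0 in the same mouse, Trem2-/- D0 replicate 1, and every injured mouse was above the other 3 uninjured ones. The log2 fold changes were 0.48 (SE 0.520, adjusted p = 0.458) for Ccl2 and 0.41 (SE 0.605, adjusted p = 0.582) for Ccl7. Without that mouse, Ccl2 was called higher, at a log2 fold change of 1.04 (adjusted p = 0.0568 by limma), and Ccl7, at 1.01, was not.

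**Figure D2:**
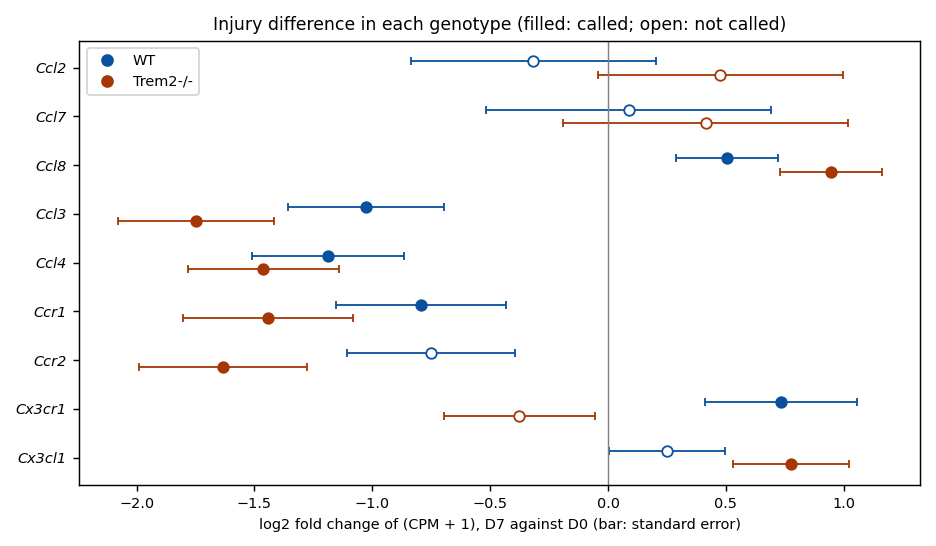
Log2 fold change of (CPM + 1) at D7 against D0 for each gene in WT (blue) and Trem2-/- (brown) joints, with standard errors from limma. Filled points were called. Ccl3, Ccl4 and Ccr1 are called lower and Ccl8 is called higher in both genotypes, and Cx3cr1 is at 0.73 in WT and -0.38 in Trem2-/- joints.

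Marker levels of several cell types moved with injury in the same libraries. Of all genes, 18.2% were called lower and 19.3% higher in WT joints, and 27.9% and 26.5% in Trem2-/- joints. All 6 leukocyte markers (Ptprc, Cd53, Laptm5, Coro1a, Cd52, Ptpn6) were called lower at D7 in both genotypes. Their summed level was 1876 to 3870 CPM at WT D0, 1146 to 2331 at WT D7, 2390 to 4139 at Trem2-/- D0 and 844 to 1031 at Trem2-/- D7. All 7 neutrophil markers were called lower in both genotypes. Of 4 classical monocyte markers tested, 3 were called lower and 1 (F13a1) higher in both, and 3 of 4 nonclassical monocyte markers were called lower in both. Macrophage markers went the other way, with 7 of 9 called higher in WT joints and 5 higher and 1 lower in Trem2-/- joints. Their summed level was 329 to 475 CPM at WT D0 and 638 to 832 at WT D7, and 399.9 to 421 at Trem2-/- D0 and 525 to 581 at Trem2-/- D7.

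Among markers of nonimmune cells, 3 of 5 fibroblast markers in WT and 4 of 5 in Trem2-/- joints, and all 3 chondrocyte markers in both, were called higher. None of the 6 endothelial markers was called in either genotype, at a median log2 fold change of 0.07 in each. All 3 B cell and all 3 erythroid markers measured were called lower in both, as were 3 of 4 T and NK cell markers in WT and 4 of 4 in Trem2-/- joints. No defining marker in these lists was at 0 in a library. The median summed level of the chondrocyte markers went from 3535 CPM at D0 to 50200 at D7 in WT joints. In Trem2-/- joints it went from 539 to 23230. CPM are shares of a library. In bulk libraries, fewer cells of a type, less RNA per cell and more RNA from other cells cannot be told apart.

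Ratios of 2 genes within one mouse do not depend on scaling between libraries, and 16 such comparisons (4 ratios in 4 contrasts) were tested with exact two-sided permutation tests. With 4 mice against 4, the smallest p they can give is 0.0286. The ratio of Ccr2 to Cx3cr1 was 5.22, 5.36, 4.68 and 6.87 at WT D0 and 1.58, 1.39, 2.26 and 2.34 at WT D7. In Trem2-/- joints it was 6.91, 3.51, 8.28 and 4.99 at D0 and 1.93, 2.25, 2.47 and 2.77 at D7. All 4 injured mice were below all 4 uninjured ones in both genotypes. The geometric mean was 0.337 of its D0 value in WT and 0.416 in Trem2-/- joints, each with an exact permutation p of 0.0286 (adjusted p = 0.0914 over the 16 comparisons), which is the smallest possible. The share of all genes that were lower per Cx3cr1 without overlap was not computed. The separation was therefore not shown to be particular to Ccr2.

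The 2 receptors were also set against genes of wider cell classes. Per unit of Ptprc, no difference in Ccr2 was detected. Its ratio to Ptprc at D7 was 0.988 of that at D0 in WT joints (log2 difference -0.02, exact permutation p = 0.943) and 1.13 in Trem2-/- joints (log2 difference 0.17, exact permutation p = 0.657). Cx3cr1 was higher per Ptprc in every injured mouse than in every uninjured mouse of its genotype. Its ratio was 0.0147 to 0.0256 at WT D0 and 0.0299 to 0.0931 at WT D7, 2.94-fold higher. In Trem2-/- joints it went from 0.0169 to 0.0192 at D0 to 0.0350 to 0.0598 at D7, 2.71-fold higher, and neither pair of ranges overlapped (exact permutation p = 0.0286, adjusted p = 0.0914 for each). Of all genes other than Ptprc, 12.7% in WT and 84.6% in Trem2-/- joints were likewise higher per Ptprc without overlap. Against Adgre1, which encodes the macrophage marker F4/80, Cx3cr1 was at 0.632 of its D0 ratio in WT joints, where ranges overlapped (exact permutation p = 0.143). It was at 0.420 in Trem2-/- joints, where they did not (exact permutation p = 0.0286, adjusted p = 0.0914). The share of all genes that separate per Adgre1 was not computed either. None of the 8 comparisons between genotypes gave ranges without overlap, and the Ccr2 to Cx3cr1 ratio was 1.27-fold higher in Trem2-/- than in WT joints at D7 (exact permutation p = 0.200).

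**Figure D3:**
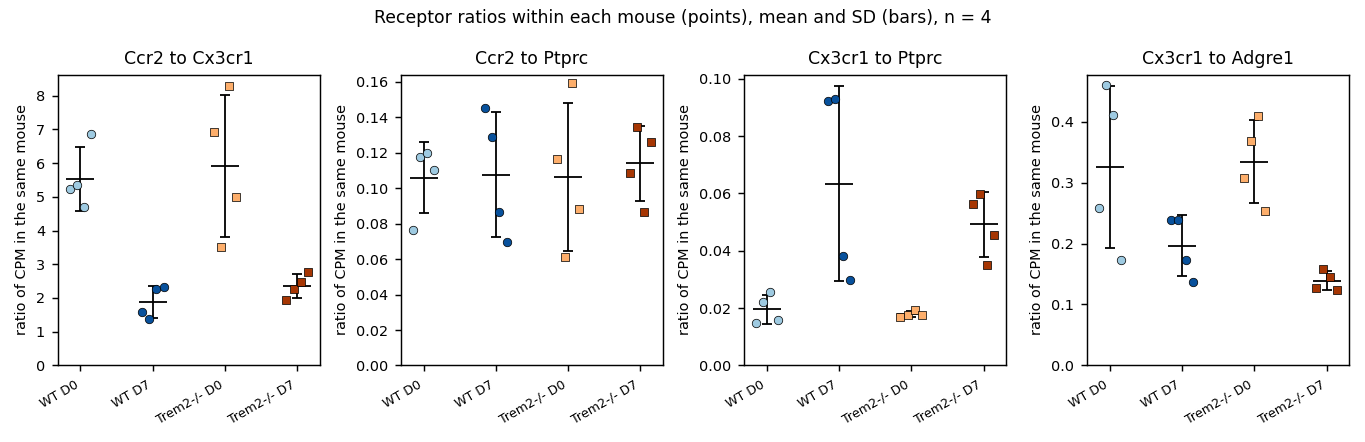
Ratio of CPM of the named genes within each mouse (points), with group mean and SD (bars), on linear axes that start at 0. The Ccr2 to Cx3cr1 ratio lies between 1.39 and 2.77 in the 8 injured mice and between 3.51 and 8.28 in the 8 uninjured mice, while the Ccr2 to Ptprc ratio overlaps in all groups.

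The other genes that fell were also compared with Ptprc, in ratios chosen after the data were seen (36 comparisons of 9 genes in 4 contrasts). In Trem2-/- joints, where Ptprc itself went from 418 to 726 CPM at D0 to 140.1 to 206 CPM at D7, Ccl3 was at 1.06, Ccl4 at 1.28 and Ccr1 at 1.32 of its D0 ratio. These ranges overlapped (exact permutation p = 0.886, 0.0571 and 0.257). In WT joints the ratios were 0.822 for Ccl3, 0.724 for Ccl4 and 0.969 for Ccr1 (exact permutation p = 0.371, 0.171 and 0.886). Relative to Ptprc, then, the 4 genes that fell in Trem2-/- joints had mean ratios at D7 between 1.06 and 1.32 of those at D0. Relative to the summed macrophage markers, Ccl3, Ccl4, Ccr1 and Ccr2 were at 0.215 to 0.301 of their D0 ratios in both genotypes, with no overlap (exact permutation p = 0.0286, adjusted p = 0.0857 for each). The summed markers were themselves higher after injury, and 65.2% of all other genes in WT and 52.0% in Trem2-/- joints were lower on this scale without overlap.

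The comparison of genotypes used the same D7 libraries as the comparisons with D0. At D7, Trem2-/- and WT joints differed by the call in 2 of the 9 genes, Cx3cr1 and Ccl8, against 5.72% of all genes. Ccl8 was tested only because of its values at Trem2-/- D7, so its call as higher there is not separate evidence. The 1 gene called lower stands against 4.53% and the 1 called higher against 1.18%. None of the 9 had groups without overlap, against 8.33% of all genes. In the main limma fit, no gene of the 13173 tested passed the adjusted threshold in this comparison, while 958 (7.27%) had an unadjusted p under 0.05. At the adjusted threshold edgeR gave 0 genes, voom gave 1 and limma with a pseudocount of 5 gave 1. Cx3cr1 was lower in Trem2-/- joints, at 7.90, 10.1, 7.22 and 8.09 CPM against 21.8, 22.1, 16.8 and 9.21 CPM in WT joints. The ranges met through WT D7 replicate 4 and Trem2-/- D7 replicate 2, and the log2 fold change was -0.93 (SE 0.321, adjusted p = 0.558). Cx3cr1 is among the genes that the study picked out in these samples, so its direction is not independent evidence. Ccl8 was higher in Trem2-/- joints, 2.12-fold by the means, with a log2(CPM + 1) difference of 0.64 (SE 0.217, adjusted p = 0.558). Its lowest Trem2-/- mouse (1.31 CPM) fell just below the highest WT mouse (1.32 CPM). Both calls stayed with each library left out, and that of Ccl8 was lost with a pseudocount of 5.

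Ccl2 averaged 109 ± 48.4 CPM at Trem2-/- D7 and 54.7 ± 21.1 CPM at WT D7 (SD, n = 4), with WT D7 replicate 2 (85.6 CPM) inside the Trem2-/- range. Its log2 fold change of 0.96 (SE 0.520, adjusted p = 0.742 by limma) was not called. It was called without WT D0 replicate 2 or Trem2-/- D0 replicate 1, which enter only the shared estimate of spread. Ccr2 was at -0.63 (SE 0.357, adjusted p = 0.753), Ccl7 at 0.72 (SE 0.605, adjusted p = 0.828) and Cx3cl1 at 0.38 (SE 0.246, adjusted p = 0.783) on the same scale, and none was called. With only the 8 injured mice in the fit, Ccl2, Ccl7, Ccr2 and Cx3cl1 were called too, which makes 6 genes, and that fit called 10.4% of all genes. In that fit 5 of all genes passed the adjusted threshold, none of them among the genes described here. Ccl3 and Ccr1 were called lower only without WT D7 replicate 1, and Ccl4 was not called.

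Leukocyte markers differed between the genotypes at D7 in the same libraries. Of these, 5 of 6 were called lower in Trem2-/- joints, as were 3 of 9 macrophage markers (Adgre1, Csf1r, Cd68), 2 of 4 nonclassical monocyte markers and 3 of 3 B cell markers. Of 4 classical monocyte, 7 neutrophil, 4 T and NK cell and 3 erythroid markers tested, 0 were called. Of all genes, 4.53% were called lower. Adgre1 and Csf1r are among the genes that the study picked out in these samples, so their direction is not independent evidence. Both are part of the summed macrophage markers. Ptprc itself was 236 to 439.8 CPM at WT D7 and 140.1 to 206 CPM at Trem2-/- D7, and it too is among the genes that the study picked out, so ratios to it carry that difference. Per 100 CPM of Ptprc, Ccl2 was 49.7, 67.3, 38.0 and 99.1 CPM in Trem2-/- and 20.4, 36.1, 10.6 and 12.4 CPM in WT joints at D7, 3.38-fold higher. Ccl7, Ccl8 and Cx3cl1 were 2.89-fold, 3.69-fold and 2.26-fold higher on this scale. None of these 4 ligands overlapped between genotypes (exact permutation p = 0.0286, adjusted p = 0.103 over 36 comparisons, for each). Of all other genes, 51.5% were likewise higher per Ptprc in Trem2-/- joints without overlap, so this separation was not particular to the 4 ligands. The other ligands overlapped, with Ccl3 at 1.33-fold (exact permutation p = 0.343) and Ccl4 at 1.63-fold (exact permutation p = 0.0857). Against the summed macrophage markers, Ccl2 was 2.66-fold, Ccl7 2.28-fold and Ccl8 2.91-fold higher without overlap (exact permutation p = 0.0286, adjusted p = 0.0857), and Cx3cl1 was 1.78-fold higher with overlap (exact permutation p = 0.0571). On that scale 42.6% of all other genes were higher without overlap. Per Ptprc, Cx3cr1 was at 0.861 of its WT ratio and Ccr2 at 1.09, both with overlap (exact permutation p = 0.571 and 0.714). Of the 6 endothelial markers, 0 were called in this comparison. The part of leukocyte content in the values of Cx3cr1 and the ligands was not tested beyond these ratios.

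**Figure D4:**
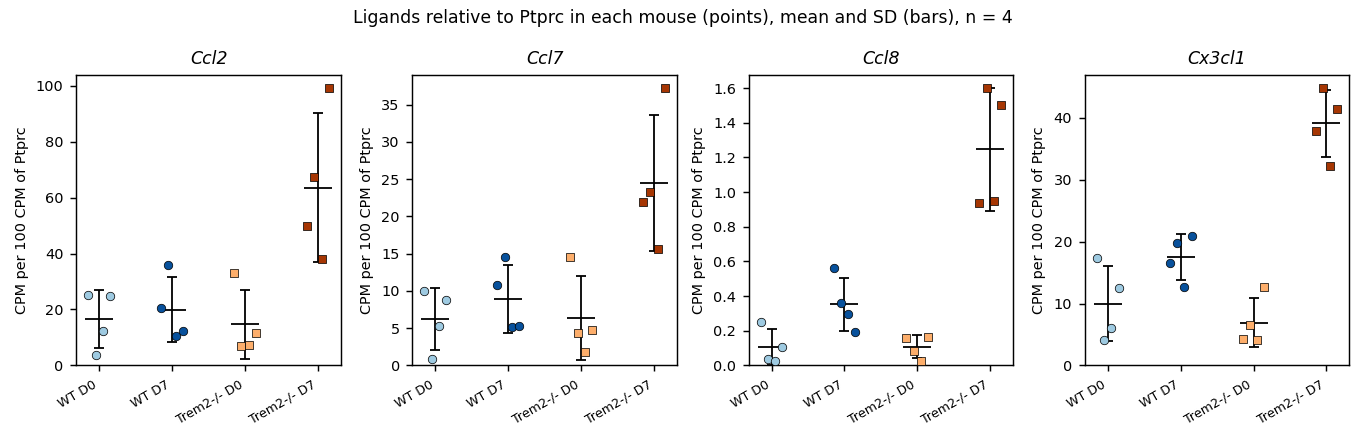
CPM of 4 ligands per 100 CPM of Ptprc in each mouse (points), with group mean and SD (bars), on linear axes that start at 0. For each ligand the 4 Trem2-/- D7 mice lie above the 4 WT D7 mice, as for Ccl2 at 38.0 to 99.1 against 10.6 to 36.1, which held for 51.5% of all other genes on this scale.

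In uninjured joints none of the 9 genes was called between genotypes, against 2.15% of all genes. By limma no gene passed the adjusted threshold there, and 385 (2.92%) had an unadjusted p under 0.05. By edgeR and voom, too, 0 genes passed it, and neither called any of the 9. The 9 log2 fold changes ran from -0.14 (Cx3cl1) to 0.39 (Ccl7), and the ranges overlapped for all 9, whereas 0.979% of all genes had groups without overlap.

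The injury difference itself differed between genotypes by the call in 1 of the 9 genes, against 7.79% of all genes and 5.02% in the same direction (lower in Trem2-/-). Cx3cr1 was higher after injury in WT (0.73) and lower in Trem2-/- joints (-0.38), an interaction of -1.11 on the log2 scale (SE 0.454, adjusted p = 0.579 by limma). No gene passed the adjusted threshold for the interaction, and 1075 (8.16%) had an unadjusted p under 0.05. By edgeR and voom the number was 0 as well. The call was lost without WT D0 replicate 1 or 4, WT D7 replicate 1 or 2, or Trem2-/- D0 replicate 3. The interaction was -0.88 for Ccr2 (SE 0.505, adjusted p = 0.662), -0.72 for Ccl3 (SE 0.469, adjusted p = 0.7104) and 0.79 for Ccl2 (SE 0.735, adjusted p = 0.809). None of these was called, so their larger values in Trem2-/- joints were not shown to differ from those in WT joints. With 1 library left out, Ccr2 was called without Trem2-/- D0 replicate 4, Ccl3 and Ccr1 without WT D7 replicate 1, Ccl2 without Trem2-/- D0 replicate 1 and Cx3cl1 without WT D0 replicate 2. Of the 6 leukocyte markers, 5 were called lower for the interaction, as were 3 of 9 macrophage and 1 of 4 nonclassical monocyte markers. Of 4 classical monocyte, 7 neutrophil, 3 B cell and 4 T and NK cell markers tested, 0 were called. The part of the leukocyte and macrophage markers in the value of Cx3cr1 was not tested. Ptprc, Adgre1 and Csf1r, which are among these markers, were picked out by the study in the same samples.

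Some pairs of the genes varied together between mice of the same group. Deviations from the group means were compared for all 36 pairs over the 16 mice, with mice permuted within groups, and p-values were adjusted over the pairs. The values share libraries and their makeup. Of the 36 pairs, 5 had an adjusted p under 0.05 by Pearson's r and 3 by rank, none of them with Ccl8 or Cx3cl1, and 9 had an r below 0. Ccl3 and Ccl4 varied together most closely (Pearson's r = 0.95, permutation p = 7e-05, adjusted p = 0.00252). Spearman's rho was 0.93 (permutation p = 6e-05, adjusted p = 0.00216), and r was 0.91 without the 2 mice farthest from the median. Within the D0 mice r was 0.82 and within the D7 mice 0.99. The RefSeq spans of Ccl3 and Ccl4 overlap and the strand setting of counting is not given. A part of reads from that overlap in this correlation was not tested.

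Ccl2 and Ccl7 formed a second pair (r = 0.94, permutation p = 0.00037, adjusted p = 0.00666, rho = 0.90, permutation p = 0.00085, adjusted p = 0.0153). Without the 2 farthest mice r was 0.86, and it was 0.94 at D0 and 0.96 at D7. Ccr2 and Cx3cr1 also varied together (r = 0.78, permutation p = 0.00099, adjusted p = 0.0119, rho = 0.76, permutation p = 0.00333, adjusted p = 0.0400). There r was 0.66 without the 2 farthest mice, 0.83 at D0 and 0.71 at D7. Thus mice with more Ccr2 than their group tended to have more Cx3cr1. The ratio of the 2 was lower in the injured than in the uninjured mice of each genotype, short of the adjusted threshold (exact permutation test, adjusted p = 0.0914 for each).

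Ccr1 followed Ccl3 (r = 0.81, permutation p = 0.0045, adjusted p = 0.0405) and Ccl4 (r = 0.80, permutation p = 0.0057, adjusted p = 0.0410). By rank neither passed (rho = 0.69 and 0.57, adjusted p = 0.112 and 0.251), and r fell to 0.58 and 0.55 without the 2 farthest mice. Cx3cl1 had a negative r with its receptor Cx3cr1 (r = -0.76, permutation p = 0.00942, adjusted p = 0.0565, rho = -0.75, permutation p = 0.0096, adjusted p = 0.0864) and with Ccr2 (r = -0.72, permutation p = 0.0212, adjusted p = 0.109, rho = -0.74, permutation p = 0.0228, adjusted p = 0.124). Neither pair passed the adjusted threshold. For Cx3cl1 and Ccr2, r was -0.90 among D0 mice and -0.02 among D7 mice. No correlation of Ccl2 with Ccr2 was detected (r = 0.10, rho = 0.16, permutation p = 0.768 and 0.607, adjusted p = 0.864 and 0.809). For this pair r was -0.001 among D0 mice and 0.56 among D7 mice.

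**Figure D5:**
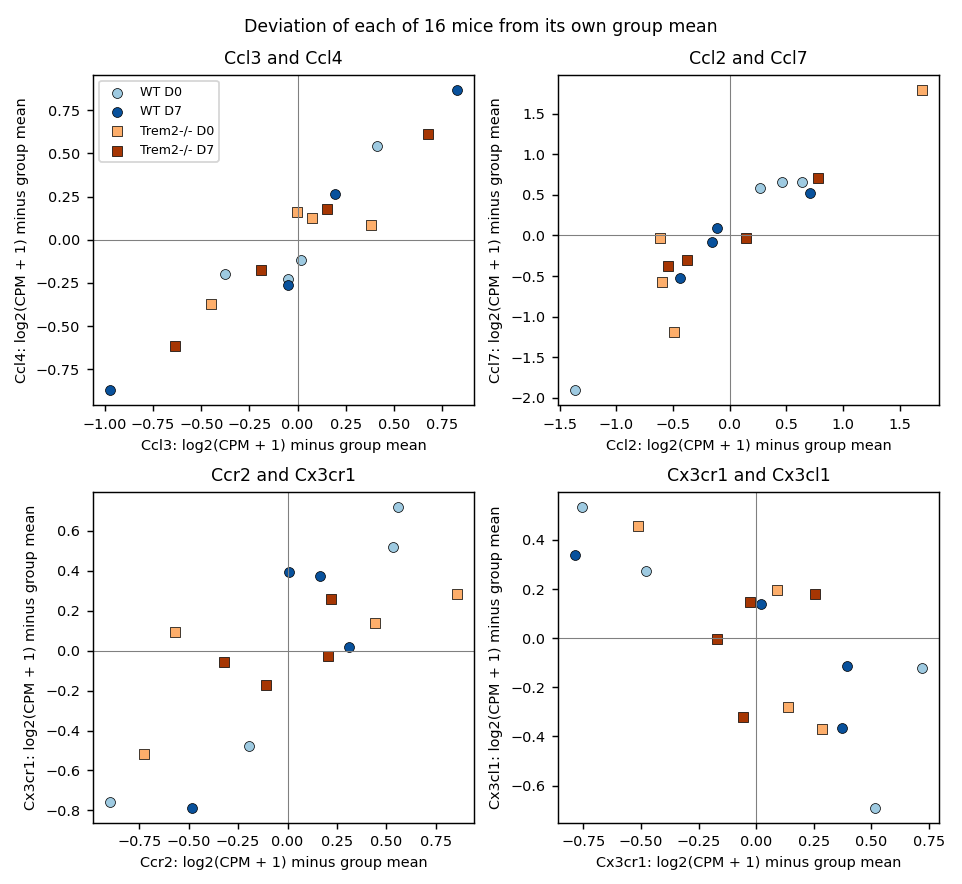
Each point is 1 of the 16 mice, placed by its log2(CPM + 1) minus the mean of its own group for the gene on each axis, with colours for the groups. Ccl3 with Ccl4 (r = 0.95), Ccl2 with Ccl7 (r = 0.94) and Ccr2 with Cx3cr1 (r = 0.78) rise together. Cx3cr1 with Cx3cl1 (r = -0.76) has a negative r and did not pass the adjusted threshold.

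The genes with the most similar pattern over all 16 mice were sought among 10544 tested genes that averaged 5 CPM or more, by Pearson's r of log2(CPM + 1) as a description. For Ccr2 these were Dclre1b, Cd48, a surface protein of blood cells, and Iqgap2, each at r = 0.98. For Cx3cr1 they were Csf1r, the receptor for the macrophage growth factor Csf1 (r = 0.87), Tbxas1, thromboxane synthase (r = 0.85), and Cndp2 (r = 0.83). For Ccl2 they were Cxcl1, a neutrophil chemokine (r = 0.90), Chic2 (r = 0.87) and Il33, an alarmin of stromal and endothelial cells (r = 0.82). For Cx3cl1 they included Tnfrsf10b, a death receptor, and Ttl, a tubulin tyrosine ligase, each at r = 0.95. With group means removed, r stayed between 0.73 and 0.96 for these genes. The 16 values share libraries and the differences between groups.

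Other genes of the chemokine system were taken from 4 lists, and no list was tested as a set. After injury, 37.4% of all genes were called in WT joints (18.2% lower, 19.3% higher). In Trem2-/- joints 54.5% were called (27.9% lower, 26.5% higher). Between genotypes the share was 5.72% at D7 and 2.15% at D0, and for the interaction it was 7.79%. Of 16 other CC ligands, 9 were listed and 7 tested. In WT joints 2 were called lower after injury (Ccl6 at a log2 fold change of -1.16, adjusted p = 0.0146, and Ccl11 at -0.88, adjusted p = 0.0889) and 1 higher (Ccl22 at 0.82, adjusted p = 0.0358). In Trem2-/- joints 3 were called lower, among them Ccl6 (-1.93, adjusted p = 0.000158) and Ccl5 (-1.14, adjusted p = 0.0170). Ccl22, a ligand of Ccr4 known from dendritic cells and macrophages, was called higher there too (1.30, adjusted p = 0.00108). None was called between genotypes at either day or for the interaction. The median log2 fold change was -0.27 in WT and -0.64 in Trem2-/- joints.

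Of 14 other CC and atypical receptors, 13 were listed and 10 tested. In WT joints 4 were called lower and 1 higher after injury, against 18.2% and 19.3% of all genes. In Trem2-/- joints 4 were called lower and 2 higher, against 27.9% and 26.5%. Ccr9 (-1.14, adjusted p = 0.00859), Ccr7 (-0.86, adjusted p = 0.0418) and Ackr3 (0.82, adjusted p = 0.0545) had the largest differences in WT joints. Ccr9 (-1.84, adjusted p = 8.66e-05), Ccrl2 (-1.73, adjusted p = 0.000316) and Ackr4 (1.57, adjusted p = 0.000199) had the largest in Trem2-/- joints. Ackr3 and Ackr4 are scavenging receptors that take up chemokines without G protein signaling. At D7, Ccr9 (-0.94, adjusted p = 0.452) was called lower and Ackr1 (0.79, adjusted p = 0.677) higher in Trem2-/- than in WT joints. At D0, Ackr4 was called lower in Trem2-/- joints (-1.10, adjusted p = 0.9996), and it was the gene called for the interaction (1.42, adjusted p = 0.579).

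Of 11 cytokine and NF-kB genes, 4 were called lower after injury in WT and 8 in Trem2-/- joints, against 18.2% and 27.9% of all genes. None was called higher. Il6 (-1.16, adjusted p = 0.0165), Il1b (-0.88, adjusted p = 0.0483) and Nfkbia (-0.48, adjusted p = 0.0150) had the largest differences in WT joints. In Trem2-/- joints these were Il1b (-1.66, adjusted p = 0.000504), Tnfaip3 (-1.13, adjusted p = 0.000252) and Ifng (-1.12, adjusted p = 0.00198). None was called at D7 between genotypes. At D0, Nfkbia (0.44) and Tnfaip3 (0.52), inhibitors of NF-kB signaling, were called higher in Trem2-/- joints (adjusted p = 0.9996 for both), and Tnfaip3 was called lower for the interaction (-0.67, adjusted p = 0.579).

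Of 11 genes of chemokine receptor signaling and fractalkine shedding, 7 were called lower after injury in WT joints, against 18.2% of all genes. In Trem2-/- joints 8 were called lower and 1 higher, against 27.9% and 26.5%. Rac2 (-1.17, adjusted p = 0.0135), Arrb2 (-0.98, adjusted p = 0.0359) and Pik3cg (-0.91, adjusted p = 0.0162) led in WT joints. The same 3 genes led in Trem2-/- joints, with Rac2 at -2.25 (adjusted p = 5.09e-05), Arrb2 at -2.0045 (adjusted p = 0.000163) and Pik3cg at -1.92 (adjusted p = 3.91e-05). All 3 encode signaling proteins, and Rac2 and Pik3cg are mainly known from blood cells. They were also called lower at D7 in Trem2-/- than in WT joints (-0.73, -0.70 and -0.81, adjusted p between 0.492 and 0.677), and 4 of the 11 genes were called lower for the interaction, led by Rac2 (-1.08), Arrb2 (-1.03) and Pik3cg (-1.0017). Adam10, which sheds Cx3cl1, was called higher after injury in Trem2-/- joints (0.35, adjusted p = 0.0116), where Cx3cl1 rose. It is named here after its values were seen. In WT joints Adam10 was at 0.11 (adjusted p = 0.419). Adam17, the other sheddase in the list, was at 0.31 (adjusted p = 0.0128) in WT joints, where Cx3cl1 was not called, and at 0.14 (adjusted p = 0.161) in Trem2-/- joints. Adam17 was below the fold threshold of the call in both.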

How the data were processed

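Bulk RNA-seq of 16 libraries was used, 4 per group, grouped by the genotype and injury labels. The authors used STAR with mm10 for alignment, featureCounts for gene counts and TMM from edgeR for normalization; versions, annotation and strand setting are not given in the sources used here. The values deposited by the authors are therefore a normalized signal, CPM with TMM scaling, for 13733 genes (1 repeated line counted once). All values were whole multiples of 1 read in their library (tolerance 0.01 read), so reads were recovered, and TMM on them gave the deposited values to within a relative 4.99e-10. The library kit, tissue handling and age differ between the labels and the methods.

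Genes with at least 1 CPM in 4 libraries were tested on log2(CPM + 1) with limma 3.58.1 (R 4.3.3), with 4 groups in a single fit and a trend in the prior variance. Calls used p under 0.05 and a difference of more than 25% above the lower group, with Benjamini-Hochberg adjusted p beside them. A fold on this scale understates changes of low genes. edgeR 4.0.16 and voom on the recovered reads were alternatives, as were other pseudocounts (0.1 and 5), filters, scalings, a replicate block and each library left out. On the recovered reads, edgeR called 5024 genes for injury in WT joints, 7279 in Trem2-/- joints, 891 and 466 between genotypes at D7 and D0, and 1227 for the interaction. Ratios used two-sided exact permutation tests (70 assignments), and correlations used 100000 permutations, in Python 3.11.15 with scipy 1.17.1 and numpy 2.4.6. The limma fit was tested on simulated data, for the comparison of genotypes at D7 only.

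The 9 genes and all lists were chosen with earlier results of these data known. Named genes are the 9, Trem2, the 3 called genes with the largest change per list and comparison, and the 3 genes most alike in pattern to Ccl2, Ccr2, Cx3cr1 and Cx3cl1. Ratios of each gene to Ptprc and to macrophage markers were added after seeing the data, apart from those of Ccr2 and Cx3cr1 to Ptprc. Limits from 3 reads cover counting error only. Some genes that these rules would name are not reported here.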

Additional observations from a re-analysis of the deposited data

Results flagged for a closer look

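In 4 of the 52 groups of 4 values examined, 1 mouse stood apart from the other 3 by Dixon's ratio, the gap to the nearest value divided by the whole range; chance gives about 1 in 20. For Ccl2 at Trem2-/- D0 the ratio was 0.978, with replicate 1 at 239.7 CPM and the others between 47.6 and 51.8. For Ccl7 at WT D0 it was 0.937, with replicate 2 at 5.26 CPM and the others between 34.2 and 36.1. For Ccl4 it was 0.884 at WT D0, with replicate 3 at 109 CPM and the others between 63.4 and 68.7, and 0.831 at Trem2-/- D0, with replicate 4 at 65.9 CPM and the others between 90.7 and 95.8.

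The difference between D7 and D0 in Cx3cr1 differed between genotypes by the unadjusted test, at -1.11 on the log2 scale (Trem2-/- minus WT), and not after adjustment (adjusted p = 0.579 by limma).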

How the results depend on the processing

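With 1 library left out, the number of the 9 genes called ranged from 2 to 6 for injury in WT joints, from 2 to 4 between genotypes at D7 and from 0 to 2 for the interaction. With an adjusted p under 0.05 as the rule, these 3 numbers were 2, 0 and 0. Between genotypes at D7, 1 gene was called with a pseudocount of 5, 1 with a mean of at least 5 CPM as the filter, which leaves Ccl8 untested, and 6 in a fit of just the groups compared. The 6 calls for injury in Trem2-/- joints stayed with each library left out.

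Over all genes, 3752 passed the adjusted threshold for injury in WT joints, against 1736 in a fit of those groups alone and 1968 to 4798 with 1 library left out. By the call, 753 were called between genotypes at D7, against 1366 in a fit of those groups alone and 479 without WT D7 replicate 3. At D0, 283 were called, against 466 by edgeR, 164 with a pseudocount of 5, 149 in a fit of those groups alone, and 107 (without WT D0 replicate 4) to 1229 (without WT D0 replicate 2) with 1 library left out. For the interaction, 1026 were called, and 609 to 2233 without those same libraries.

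Signs that turned were those of genes not called. With 1 library left out, Ccl7 in WT joints ranged from -0.55 to 0.31 on the log2 scale (-0.17 by edgeR) and Ccl4 between genotypes at D7 from -0.37 to 0.21. Between genotypes at D0, Ccl2 ranged from -0.40 to 0.38, Ccl7 from -0.24 to 0.79, Ccr2 from -0.0493 to 0.49, Cx3cr1 from -0.0681 to 0.42 and Cx3cl1 from -0.37 to 0.0363. The interaction ranged from -0.0686 to 0.96 for Ccl7 and from -0.57 to 0.0150 for Ccl4. The exceptions were called genes set against other genes. Per Ptprc, injury in Trem2-/- joints gave 0.0899 for Ccl3, 0.36 for Ccl4, 0.40 for Ccr1 and 0.17 for Ccr2. Per summed macrophage markers, Cx3cr1 in WT joints was at -0.16, and per Adgre1 at -0.66. The cause of these changes was not tested.

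The replicate numbers were not shown to pair the mice. Deviations of same-numbered samples correlated at 0.0458 to 0.406 for injury in WT, -0.196 to 0.106 for injury in Trem2-/-, -0.0794 to 0.380 between genotypes at D7 and -0.509 to 0.166 at D0. With the replicate number as a block, 6 genes were called for injury in WT joints instead of 5, with Ccr2 added at -0.75, and 6, 2, 0 and 1 in the other comparisons, as without the block. With 4 mice a group, the exact tests could not give a p below 0.0286, and Ccl8 rested on 3 to 39 reads per library.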
